A study of Mus musculus with 21 samples.

Results

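Transcripts of 8 transporter genes that move drugs and organic anions across the barriers of the brain were measured by bulk RNA sequencing in mouse choroid plexus and hypothalamus. The genes were chosen by name, with earlier results of these data known. The uptake carriers were the organic anion transporting polypeptides Slco1a4 and Slco1a5, the organic anion transporter Slc22a8 and the peptide transporter Slc15a2. The ATP-driven efflux pumps were Abcb1a, Abcc1, Abcc4 and Abcg2. These genes are 8 of the 25239 listed for each tissue. All 8 passed the filter on low values (a mean of at least 10) in both tissues. All animals were wild-type C57BL/6J mice. Choroid plexus was taken from mice with Ins2, a mouse insulin gene, overexpressed in the choroid plexus (n = 6 libraries) and from controls described as untreated (n = 5). Hypothalamus was taken from mice with the same overexpression in the choroid plexus (n = 5) and from controls described the same way (n = 5). The labels name no vector, promoter, age or sex, and the hypothalamus control columns of the deposited table carry a GFP prefix that the labels do not explain. Whether each library is a separate animal is not stated, and p-values then reflect only the variation among these libraries.

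The brain has a pair of main barriers to solutes in blood: the endothelium of its capillaries and the epithelium of the choroid plexus, the ventricular tissue that secretes cerebrospinal fluid and whose own capillaries are leaky. Uptake carriers of the SLC and SLCO families bring organic anions and peptides into the barrier cell, and ABC pumps use ATP to push drugs, conjugates and signalling molecules out of it. P-glycoprotein, made from Abcb1a, and BCRP, made from Abcg2, are known for the blood-facing membrane of brain capillaries. Slc22a8 (OAT3), Slco1a5 and Slc15a2 (PEPT2) are known for the fluid-facing membrane of the choroid plexus epithelium, where they clear anions and peptides from cerebrospinal fluid, and Abcc1 (MRP1) and Abcc4 (MRP4) for its blood-facing side.

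Libraries held 25.95 to 36.3 M reads in genes (M, 1e+06) in choroid plexus and 27.4 to 62.1 M in hypothalamus, and 3 reads, the upper limit behind a count of 0, correspond to 0.0483 to 0.116 per M (counting error only). In choroid plexus Ins2 itself averaged 430 ± 50.7 size-factor-scaled reads in the 5 controls and 826 ± 162 (SD) in the 6 Ins2 libraries (fold 1.90; limma adjusted p = 0.00594), and it was 0 in 9 of 10 hypothalamus libraries. Defining markers matched the tissue labels: in controls the summed level of 16 choroid epithelium genes was 109790 reads per kb of exon per M reads in choroid plexus and 50.3 in hypothalamus, and that of 12 neuronal genes was 4.63 and 1010. Endothelial genes were measured in both, 39.6 in choroid plexus and 99.7 in hypothalamus for the 19 found of 20 listed, of which 17 were higher in hypothalamus. The hypothalamus was bulk tissue, so its vessels are seen only through such genes, and fewer cells of a type and less RNA per cell cannot be told apart.

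Slco1a4 and Slco1a5 are close relatives in 1 gene cluster on chromosome 6 and had very different tissue patterns, so their sequences are shown first. On GRCm38, with GENCODE vM21 gene models, Slco1a4 spans chr6:141805440-141856199 and Slco1a5 chr6:142234227-142322981, both on the minus strand. Their coding sequences, 2010 bases each, were identical at 89.35% of positions. The longest stretch of identical coding bases was 139 bases, at coding bases 673 to 811 in both genes, shown in capitals with 10 flanking bases on each side.
Slco1a4: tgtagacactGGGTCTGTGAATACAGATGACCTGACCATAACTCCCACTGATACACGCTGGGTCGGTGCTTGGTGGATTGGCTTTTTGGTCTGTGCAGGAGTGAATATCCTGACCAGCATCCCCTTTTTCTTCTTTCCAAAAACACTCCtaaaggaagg
Slco1a5: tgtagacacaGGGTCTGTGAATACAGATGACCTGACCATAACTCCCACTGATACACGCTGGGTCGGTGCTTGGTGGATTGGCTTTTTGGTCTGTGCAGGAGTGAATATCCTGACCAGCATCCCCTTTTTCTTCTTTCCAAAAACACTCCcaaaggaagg
A read that lies wholly inside such a stretch cannot be assigned to 1 of the genes. Of all 50-base windows, 2.65% of those in the longest Slco1a4 transcript and 3.94% of those in the longest Slco1a5 transcript occurred in the other. With 100-base windows these shares were 1.07% and 1.61%, so the share depends on read length. How reads shared by both genes were counted was not examined. In choroid plexus, where Slco1a5 had 1004 to 1676 reads per library, 2.65% of the Slco1a4 reads is 118 to 185 reads. In hypothalamus it is 37.0 to 78.1 reads per library, more than the whole Slco1a5 count of 0 to 30 reads, so the origin of the Slco1a5 reads there is uncertain. For Abcb1a the share was larger: 15.5% of its 50-base windows occurred in Abcb1b, the second mouse P-glycoprotein gene.

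RefSeq promoter windows (250 bases before to 50 after a start, GRCm38.p6) were found for 7 of the 8 genes, with Abcc1 unmatched. Slco1a5 has a pair of annotated starts. The Slco1a4 window aligned with the window of the downstream Slco1a5 start over 214 bases at 83.2% identity, and with the window of the upstream start over only 11 bases. The aligned pair is shown 5′ to 3′ on the minus strand, with identical aligned bases in capitals.
Slco1a4, chr6:141856171-141856470: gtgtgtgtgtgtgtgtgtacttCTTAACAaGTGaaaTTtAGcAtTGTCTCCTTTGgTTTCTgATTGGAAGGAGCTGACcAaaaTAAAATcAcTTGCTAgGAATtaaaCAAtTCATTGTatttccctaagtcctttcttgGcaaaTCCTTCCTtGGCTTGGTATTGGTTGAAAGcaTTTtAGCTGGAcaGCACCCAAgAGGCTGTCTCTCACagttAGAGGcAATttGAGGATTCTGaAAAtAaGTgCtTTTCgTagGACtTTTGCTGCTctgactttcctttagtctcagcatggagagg
Slco1a5, downstream start, chr6:142278825-142279124: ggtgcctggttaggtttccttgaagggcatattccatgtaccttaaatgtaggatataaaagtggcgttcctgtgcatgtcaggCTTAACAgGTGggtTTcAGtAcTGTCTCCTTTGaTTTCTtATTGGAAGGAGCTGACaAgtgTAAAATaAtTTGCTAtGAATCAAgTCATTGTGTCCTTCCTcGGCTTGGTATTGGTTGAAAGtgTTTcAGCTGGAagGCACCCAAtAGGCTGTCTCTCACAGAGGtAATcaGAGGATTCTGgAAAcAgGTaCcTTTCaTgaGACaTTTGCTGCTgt
A stretch at the 3′ end of each window was searched for whole in the GENCODE vM21 protein-coding transcripts of its gene. It occurred there for the upstream Slco1a5 window and not for the windows shown. For Slco1a4 it could not match, because the gene model begins at 141856199 on the minus strand, inside that stretch. Start positions were not compared. The reads were summed per gene, so which start was used was not measured.

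A second contrast in sequence lies between a pair of the genes most abundant in choroid plexus. Abcc4 has a pair of annotated starts. Its window at the start of the gene model held 41 CpG pairs, more than 96.5% of the 32851 windows in the table. Its other window held 6, more than 43.6% of them. The window of Slc22a8 held 1 and lies inside its gene model, which starts at chr19:8591254. The Abcc4 window with 41 pairs and the Slc22a8 window are shown 5′ to 3′ with CpG pairs in capitals.
Abcc4, chr14:118706170-118706469, minus strand: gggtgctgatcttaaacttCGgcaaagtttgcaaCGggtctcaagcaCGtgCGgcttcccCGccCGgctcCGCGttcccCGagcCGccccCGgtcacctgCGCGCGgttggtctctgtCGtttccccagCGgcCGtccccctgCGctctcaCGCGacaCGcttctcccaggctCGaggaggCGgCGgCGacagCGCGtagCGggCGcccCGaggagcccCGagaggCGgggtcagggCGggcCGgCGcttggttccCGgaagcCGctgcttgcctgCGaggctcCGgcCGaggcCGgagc
Slc22a8, chr19:8592932-8593231, plus strand: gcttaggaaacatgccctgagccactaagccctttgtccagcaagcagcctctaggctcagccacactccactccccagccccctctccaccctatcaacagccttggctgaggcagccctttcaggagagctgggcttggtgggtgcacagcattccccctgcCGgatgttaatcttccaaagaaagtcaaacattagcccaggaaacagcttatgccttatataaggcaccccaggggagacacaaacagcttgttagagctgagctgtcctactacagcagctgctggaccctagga
Both strands were searched for 4 motifs, which can overlap 1 another. The Abcc4 window shown held 3 GC boxes (GGGCGG, in 35.7% of all windows) and 1 E-box (CACGTG, in 7.15%). The Slc22a8 window held TATAA (in 24.9%) on both strands 31 and 28 bases before the start. The core bound by OTX factors (TAATCC, in 7.06%) was in none of the 11 windows of these genes. These matches describe letters in a window and say nothing of binding. The gene models themselves lie at chr14:118482692-118706219 (Abcc4, minus strand), chr19:8591254-8611835 (Slc22a8, plus), chr5:8660077-8748575 (Abcb1a, plus), chr16:14361558-14475737 (Abcc1, plus), chr6:58584523-58695676 (Abcg2, plus) and chr16:36750177-36784962 (Slc15a2, minus), and all values are sums over their exons.

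Levels were set side by side as reads per kb of exon per M reads in genes, which allows genes of different length to be compared. The tissues' tables had been scaled separately by the authors, and choroid plexus spends 10.7% to 12.98% of its reads on Ttr alone, so levels across tissues are given as a description with no test. In controls 6 of the 8 transporters were higher in choroid plexus and 2, Abcb1a and Slc15a2, were higher in hypothalamus. Control libraries of the tissues did not overlap for any of the 8. Over the 16517 genes with an exon length and a mean value of at least 10 in either tissue, 33.4% were higher in choroid plexus. Of the same genes 77.8% did not overlap, so lack of overlap alone was common.

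**Figure D1:**
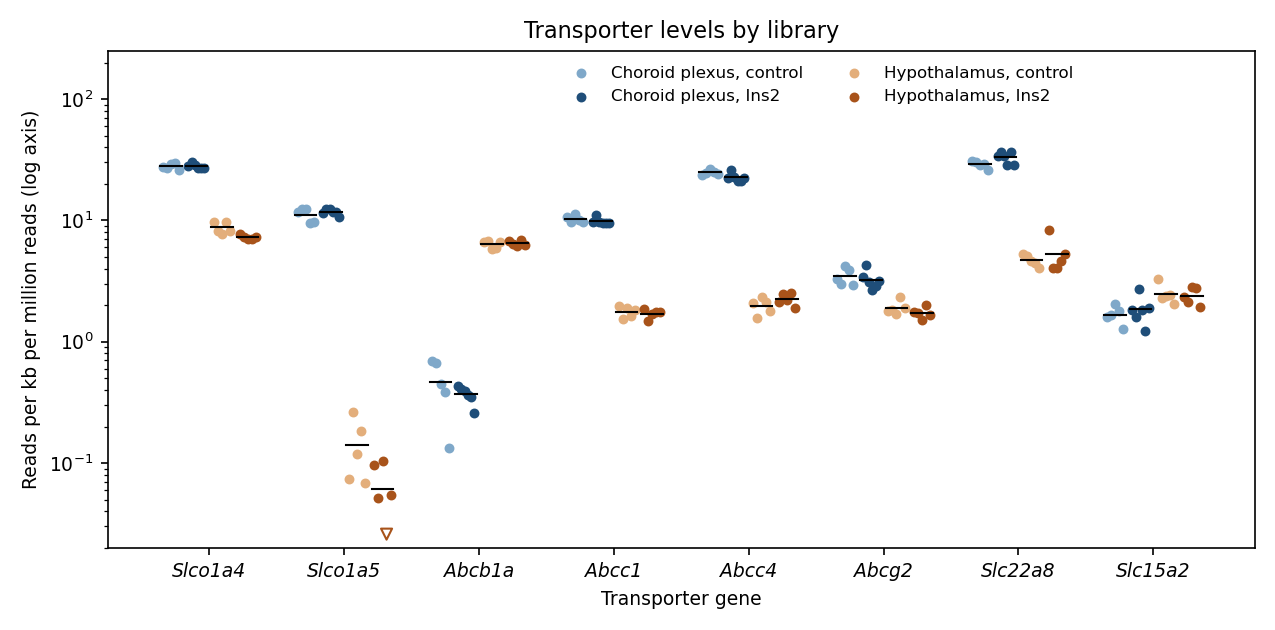
Level of each transporter gene in each library, in reads per kb of exon per M reads on a log axis, by tissue and group, with group means as black lines. The open triangle marks a Slco1a5 count of 0, drawn at the level that 3 reads would give in that library. By control means Abcb1a is 13.6 times higher in hypothalamus and Slco1a5 78.9 times higher in choroid plexus.

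Among the uptake carriers, Slc22a8 and Slco1a4 were the most abundant in choroid plexus, and their order was not clear: Slc22a8 was above Slco1a4 in 2 of 5 control libraries. Slc22a8 was at 28.9 ± 1.78 reads per kb per M reads in controls (SD, n = 5) against 4.68 ± 0.491 in control hypothalamus (n = 5). Slco1a4 was at 27.8 ± 1.46 in choroid plexus and 8.75 ± 0.933 in hypothalamus, a ratio of 3.18. Slco1a5 was at 11.2 ± 1.43 in choroid plexus and 0.142 ± 0.081 in hypothalamus, where its 5 control libraries held 7 to 30 reads each. Its ratio between the tissues, 78.9, was the largest of the 8 and rests on those few reads, whose origin is uncertain. Slc15a2 had a flatter pattern: 1.67 ± 0.279 in choroid plexus and 2.48 ± 0.471 in hypothalamus. When the 50 most abundant genes of each tissue were left out of the totals, the Slc15a2 control ranges overlapped, and this was the only one of the 8 for which they did.

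Among the efflux pumps, Abcc4, which exports cyclic nucleotides and conjugated anions, was at 24.8 ± 1.16 in control choroid plexus and 1.99 ± 0.303 in control hypothalamus, a ratio of 12.5. Abcc1, an exporter of glutathione conjugates, was at 10.3 ± 0.714 and 1.77 ± 0.190, a ratio of 5.81. Abcg2 was nearer to even, at 3.47 ± 0.569 and 1.91 ± 0.254, a ratio of 1.82. Abcb1a had the opposite pattern: 0.465 ± 0.230 in choroid plexus and 6.34 ± 0.439 in hypothalamus, 13.6 times higher in hypothalamus. That ratio was 10.6 when the most abundant genes were left out of the totals. Of its exon bases 10.09% lie opposite the antisense gene Gm42686, and the strand setting of the counting is not given in the sources used here.

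The order of the 8 genes therefore differed between the tissues. In control choroid plexus it ran Slc22a8, Slco1a4, Abcc4, Slco1a5, Abcc1, Abcg2, Slc15a2, Abcb1a. Slc22a8 overlapped Slco1a4, Slco1a4 overlapped Abcc4, and Slco1a5 overlapped Abcc1, while the other neighbours in that order did not overlap. In control hypothalamus it ran Slco1a4, Abcb1a, Slc22a8, Slc15a2, Abcc4, Abcg2, Abcc1, Slco1a5. Slc15a2 overlapped Abcc4, Abcc4 overlapped Abcg2 and Abcg2 overlapped Abcc1, while the other neighbours did not overlap. With the longest transcript as the gene's length instead of the union of its exons, Slco1a4 came before Slc22a8 and Abcc1 before Slco1a5 in choroid plexus, and Abcc1 moved from rank 7 to rank 5 in hypothalamus. Against all genes ranked by level, Slc22a8 stood at percentile 90.7 in choroid plexus and 47.6 in hypothalamus, and Abcb1a at percentile 15 and 55.5.

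Ratios of genes within a library do not depend on how the library was scaled. Slco1a4 was 2.15 to 3.09 times the level of Slco1a5 in the 11 choroid plexus libraries. In the hypothalamus libraries with more than 3 Slco1a5 reads it was 31.6 to 140 times that level, with the same limit on the Slco1a5 reads. Abcb1a was 0.119 to 0.458 times the median level of the endothelial genes in choroid plexus and 1.83 to 2.53 times in hypothalamus, with no overlap. The same ratio for Slco1a4 was 11.6 to 33.6 in choroid plexus and 2.35 to 3.28 in hypothalamus, again with no overlap, in the opposite direction. Of 10 genes listed for barrier capillaries 4 were higher in control hypothalamus and 6 in control choroid plexus. Their sum was 178 reads per kb per M reads in choroid plexus and 286 in hypothalamus, but 171 and 116 without Spock2, so the list has no single direction. Mfsd2a, a lipid transporter of brain capillaries, was at 1.02 in choroid plexus and 12.9 in hypothalamus. All 7 genes listed for fenestrated, leaky capillaries were higher in choroid plexus, with sums of 81.0 and 37.4, or 34.1 and 23.1 without Plpp1. Their part in the pattern of the transporters was not tested.

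The second question was whether Ins2 overexpression in the choroid plexus changed these transcripts. None of the 8 passed the test in either tissue (limma on log2(value + 1) with Benjamini-Hochberg adjustment over all genes, threshold 0.05), and edgeR on the recovered reads called none of them. The background was low: 2 of 14533 genes (0.0138%) passed in choroid plexus and 0 of 16363 (0%) in hypothalamus. Without adjustment, a p under 0.05 was reached by 2 of the 8 in choroid plexus, Abcc4 and Slc22a8, against 6.21% of all genes, and by 1 of the 8 in hypothalamus, Slco1a4, against 9.92%. In both tissues 5 of the 8 log2 fold changes lay below 0 and 3 above, where 51.6% of all genes lay below 0 in choroid plexus and 49.7% in hypothalamus. Their median was -0.05 and -0.04. Ins2 and control ranges overlapped for all 8 in both tissues, as they did for all but 0.626% of genes in choroid plexus and 1.5% in hypothalamus. Values below are size-factor-scaled reads, which compare libraries of 1 tissue for 1 gene.

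**Figure D2:**
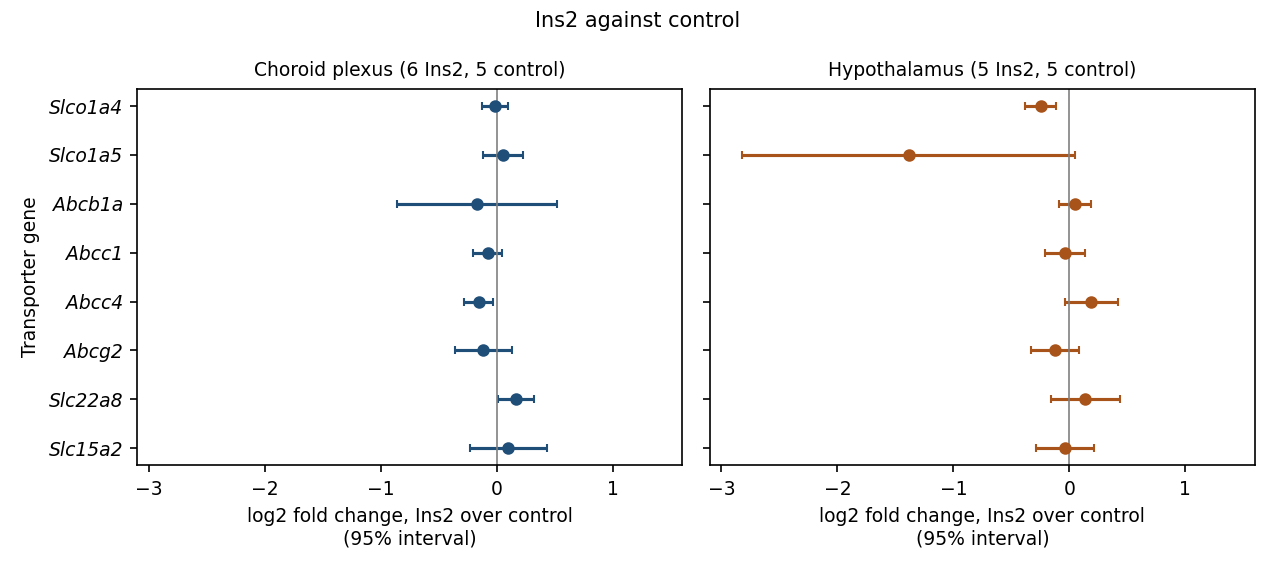
Log2 fold change of each transporter gene, Ins2 over control, with its 95% interval from limma, in choroid plexus (left) and hypothalamus (right). The widest interval is that of Slco1a5 in hypothalamus. The intervals of Slco1a4 in hypothalamus and Abcc4 in choroid plexus lie wholly below 0, and that of Slc22a8 in choroid plexus lies wholly above 0. Their limma adjusted p-values are 0.316, 0.718 and 0.793.

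Slco1a4 in hypothalamus had the smallest p of the 16 values. The controls were at 2197, 1861, 1753, 2200 and 1874 scaled reads and the Ins2 libraries at 1766, 1671, 1599, 1607 and 1652. Of the 5 Ins2 libraries 4 lay below every control, and replicate 1 lay just above the lowest control. The mean was 1977 ± 207 in controls and 1659 ± 66.8 in Ins2 (SD, n = 5 each), a fold of 0.842 (95% interval 0.766 to 0.926; limma unadjusted p = 0.00118, adjusted p = 0.316; exact permutation p = 0.0159 over 252 splits, two-sided). DESeq2 on the recovered reads gave an adjusted p of 0.0492, the only call of any of the 8 genes among the alternatives. Across the alternatives the adjusted p for this gene ran from 0.0492 to 0.675. DESeq2 also called other genes in hypothalamus, where limma and edgeR called none, and the counts are given in the last paragraph. With the endothelial score as a covariate the log2 fold change was -0.25 (limma adjusted p = 0.368), against -0.25 without it. That score averaged 9.15 in controls and 9.13 in Ins2 libraries. The part of vessel content in this difference was not tested. In choroid plexus Slco1a4 was 5326 ± 279 in controls (n = 5) and 5273 ± 322 in Ins2 (n = 6), a fold of 0.9896 (95% interval 0.916 to 1.07).

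Slco1a5 in hypothalamus was close to the limit of counting. Controls were at 9.69, 34.2, 15.7, 24.1 and 9.08 scaled reads and Ins2 libraries at 12.7, 6.90, 13.8, 0 and 7.21. All 5 Ins2 libraries lay below the control mean of 18.6, and 3 of 5 below every control. The fold on the log2(value + 1) scale was 0.383 (95% interval 0.142 to 1.04; exact permutation p = 0.0952; limma adjusted p = 0.521), and the ratio of the group means was 0.437. Its log2 value of -1.38 was -0.87 with a pseudocount of 5 and -0.70 without Ins2 replicate 4, the library with 0 reads. In choroid plexus, where the gene had 1004 to 1676 reads in each library, its fold was 1.04 (95% interval 0.921 to 1.17).

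**Figure D3:**
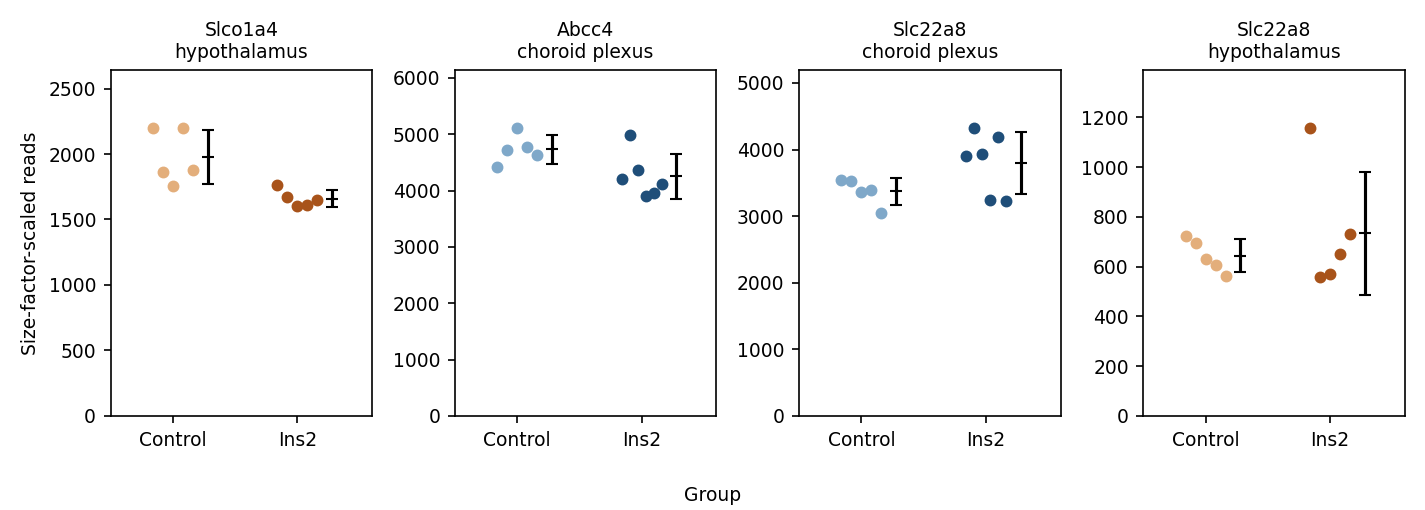
Size-factor-scaled reads of Slco1a4 in hypothalamus, Abcc4 and Slc22a8 in choroid plexus and Slc22a8 in hypothalamus, 1 point per library, with the mean and SD of each group beside the points and axes from 0. Most Ins2 points lie under the controls for Slco1a4 and Abcc4, and 1 Ins2 point stands apart for Slc22a8 in hypothalamus.

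Abcc4 in choroid plexus was at 4420, 4719, 5112, 4764 and 4634 in controls. The Ins2 libraries were at 4201, 4980, 4356, 3897, 3956 and 4112. Replicate 2 lay among the controls and the other 5 lay below every control. The mean was 4730 ± 251 (SD, n = 5) and 4250 ± 394 (n = 6), a fold of 0.897 (95% interval 0.820 to 0.980; limma unadjusted p = 0.0189, adjusted p = 0.718; exact permutation p = 0.0411 over 462 splits). In hypothalamus the fold of Abcc4 was on the other side of 1, at 1.14 (95% interval 0.973 to 1.34; adjusted p = 0.583).

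Slc22a8 in choroid plexus was at 3540, 3528, 3361, 3397 and 3044 in controls and at 3906, 4326, 3929, 3249, 4182 and 3221 in Ins2 libraries. Of the 6 Ins2 libraries 4 lay above every control, and replicates 4 and 6 lay within the control range. The fold was 1.12 (95% interval 1.01 to 1.25; limma unadjusted p = 0.0403, adjusted p = 0.793; exact permutation p = 0.0952). Endothelial genes summed to 3104 and 4890 scaled reads in Ins2 replicates 4 and 6, the lowest of the Ins2 libraries, and to 5387 to 8273 in the other 4. The same libraries were also the lowest Ins2 libraries in the choroid epithelium sum, at 4.82e+06 and 5.08e+06 scaled reads against 5.34e+06 to 5.54e+06. With the endothelial score as a covariate the log2 fold change was 0.19 (adjusted p = 0.331), against 0.17 without it.

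Slc22a8 in hypothalamus was at 725, 696, 633, 606 and 560 in controls and at 1158, 560, 569, 652 and 729 in Ins2 libraries. Replicate 1 stood far above the rest, and the fold was 1.10 (95% interval 0.895 to 1.35; limma adjusted p = 0.767). The same library was highest in fibroblast genes: the 10 of that list, none of them at 0 in every library, summed to 5936 scaled reads in Ins2 replicate 1 and 5373 in replicate 5, against 3335 to 3684 in the other 3 Ins2 libraries and 3535 to 4267 in controls. Replicate 1 was also the highest of the 10 libraries in the endothelial sum, at 14705 against 12361 to 14195, and in the macrophage and microglia sum, at 8856 against 8091 to 8845, both by smaller margins. With the endothelial score as a covariate the log2 fold change of Slc22a8 was 0.19, and with the fibroblast score 0.13. Slc22a6, the other main organic anion transporter, was at 263 and 145 in these libraries, and at 11.4 to 54.8 in controls. Without replicate 1 the log2 fold change of Slc22a8 was -0.04 and without replicates 1 and 5 it was -0.11, against 0.14 with all. The part of these cell types in the value of replicate 1 was not tested.

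**Figure D4:**
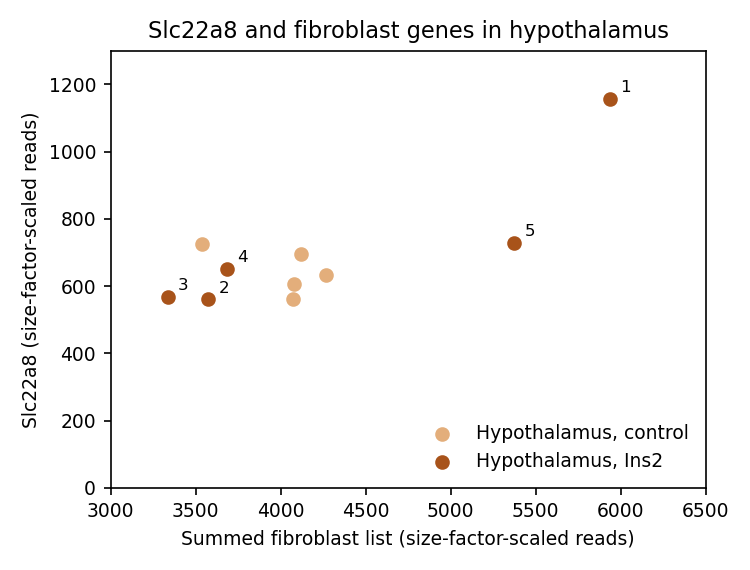
Slc22a8 (vertical axis) against the summed fibroblast list (horizontal axis), both in size-factor-scaled reads, in the 10 hypothalamus libraries, with Ins2 libraries numbered by replicate. Ins2 replicates 1 and 5 lie to the right of all others, and replicate 1 is highest in Slc22a8.

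For the remaining genes the group means differed by less than the SD of the controls. Abcb1a in choroid plexus was at 112, 110, 73.9, 62.4 and 21.6 in controls and 41.0 to 69.5 in Ins2 libraries, so the whole Ins2 range lay inside the control range (fold 0.887, 95% interval 0.549 to 1.43). Control 5, the lowest, was also the lowest control in the endothelial sum, at 4199 scaled reads, and in the fibroblast, astrocyte, oligodendrocyte, macrophage and epithelial sums. Ins2 replicate 4 had a still lower endothelial sum, 3104, with Abcb1a at 57.9, inside the range of the other Ins2 libraries. Control 2, with Abcb1a at 110, had the highest oligodendrocyte and astrocyte sums of the choroid plexus libraries, 54407 and 17633 scaled reads. Control 1, with Abcb1a at 112, had sums of 2964 and 11458. The part of brain tissue in these Abcb1a values was not tested. In hypothalamus Abcb1a was 1225 ± 88.2 in controls and 1265 ± 65.7 in Ins2 (fold 1.03, 95% interval 0.942 to 1.14). Abcc1 had a fold of 0.947 in choroid plexus (95% interval 0.868 to 1.03) and 0.973 in hypothalamus (0.864 to 1.10). Abcg2 had folds of 0.921 (0.776 to 1.09) and 0.917 (0.795 to 1.06). Slc15a2 had folds of 1.07 (0.849 to 1.35) and 0.976 (0.819 to 1.16). These intervals bound what the data allow for each gene, and a p that misses the threshold does not show that a level was the same.

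A difference between the tissues in the response to Ins2 was tested for each gene. None of the 8 passed, where 15 of 13997 genes (0.107%) did. An unadjusted p under 0.05 was reached by 2 of the 8 and by 10.6% of all genes. They were Slco1a4 (0.23, choroid plexus minus hypothalamus on the log2 scale, 95% interval 0.06 to 0.40; adjusted p = 0.296) and Abcc4 (-0.35, 95% interval -0.61 to -0.09; adjusted p = 0.304). This test treats the tissues as independent, which need not hold if they came from the same animals.

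Other carriers of drugs, organic ions and solutes were read from a list of 44 genes. The filter on low values left 29 of them in choroid plexus and 33 in hypothalamus, and 0 passed the test in either (limma; 1 and 2 had an unadjusted p under 0.05). The median log2 fold change was -0.02 in choroid plexus, with 11 above 0 and 18 below (all genes -0.0045). It was 0.02 in hypothalamus, with 18 above and 15 below (all genes 0.0011). Among the most abundant in control choroid plexus were Slc22a17, a lipocalin receptor of the organic cation transporter family, at 851 reads per kb per M reads, Slc29a4, a monoamine transporter, at 322, Slco1c1, a thyroxine carrier, at 179, and Slc22a5, a carnitine transporter, at 30.9. All 4 had a mean above those of the 8 drug and anion transporters in choroid plexus, Slc22a5 by the least. In control hypothalamus Slc22a17 led at 239, followed by the amino acid transporter Slc7a5 at 30.9, the nucleotide exporter Abcc5 at 15.3, Slc29a4 at 13.7 and the nucleoside transporter Slc29a1 at 11.5.

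The smallest unadjusted p-values in this list were those of Slc29a4 (fold 0.907, limma adjusted p = 0.728) and Slco3a1 (0.770, adjusted p = 0.815) in choroid plexus. In hypothalamus they were those of Slc22a17 (fold 1.08, limma adjusted p = 0.446) and the cation exporter Slc47a1 (2.82, adjusted p = 0.487). Slc47a1 was at 162 and 89.6 scaled reads in Ins2 replicates 1 and 5, the libraries high in fibroblast genes, and at 2.59 to 34.3 in controls. Without these libraries its log2 fold change was 0.30, against 1.496 with them.

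Regulators of transporter genes and proteins that anchor them at the membrane formed a list of 18 genes, of which 16 were tested in each tissue and 0 passed (limma; 0 in choroid plexus and 3 in hypothalamus had an unadjusted p under 0.05). The median log2 fold change was -0.02 and 0.03. In choroid plexus the most abundant were Ezr at 249 reads per kb per M reads, the NHERF1 scaffold gene Slc9a3r1 at 48.2, Rdx at 33.0, the stress-response factor Nfe2l2 at 22.9 and the retinoid receptor Rxra at 16.8. Ezr and Rdx link membrane proteins to actin. Rxra (fold 0.930, limma adjusted p = 0.875) and the scaffold gene Pdzk1 (0.932, adjusted p = 0.925) had the smallest p-values there. In hypothalamus Rdx was at 29.3, Slc9a3r1 at 25.7, Slc9a3r2 at 21.5, Keap1, which holds back Nfe2l2, at 20.6 and Rxrb at 15.9. Arnt, the partner of the xenobiotic receptor Ahr, had a fold of 0.899 (limma adjusted p = 0.388) and Rxrb of 1.12 (adjusted p = 0.398).

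Whether the transporters followed vessel or epithelial content from library to library was examined with group means removed. Of 24 relations between a transporter and the endothelial or choroid epithelium score, 0 passed Benjamini-Hochberg adjustment. The largest were Slc22a8 with the endothelial score over 11 choroid plexus libraries (Pearson r = 0.80, permutation p = 0.0101, adjusted 0.121; Spearman rho = 0.57, permutation p = 0.131, adjusted 0.560) and Abcc4 with the epithelial score (r = 0.78, permutation p = 0.00848, adjusted 0.121; rho = 0.80, permutation p = 0.0108, adjusted 0.258). Without the 2 libraries farthest from the median score, r was 0.60 for Slc22a8 and 0.57 for Abcc4. In hypothalamus Slco1a4 had r = -0.06 with the endothelial score (permutation p = 0.870, adjusted 0.921; rho = -0.13, permutation p = 0.747, adjusted 0.896; r = -0.24 without the 2 farthest), over 10 libraries.

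The genes whose values moved most like each transporter are given as a description, by Pearson r of log2 values with group means removed, over 11 choroid plexus or 10 hypothalamus libraries. The values were scaled for depth, but differences in tissue make-up between libraries can move many genes together. Their part in these correlations was not tested. In choroid plexus they were Ifnar1 and Abcg2 for Slco1a4 (r = 0.94 and 0.93), Bcap29 and Sec63 for Abcc4 (0.99 and 0.97), Tpcn1 and Letmd1 for Slc22a8 (0.97 and 0.94), Tmem129 and Mmd for Slco1a5 (0.92 and 0.90), Trim62 and Soga1 for Abcb1a (0.92 and 0.91), Dnajb12 and Ctns for Abcc1 (0.92 and 0.91), Slc7a1 and Tmem79 for Slc15a2 (0.92 and 0.91), and Ahnak, followed by Slco1a4, for Abcg2 (0.94 and 0.93). Slco1a4 and Abcg2 were thus each among the other's 2 nearest genes of 12169. Such values are the highest of many correlations over few libraries, and none was tested. In hypothalamus they were Zfp2 and Rian for Slco1a4 (0.98 and 0.97), Mtus1 and Mapkap1 for Abcb1a (0.91 each), Tmem167b and Psme4 for Abcg2 (0.99 and 0.94), Zfp317 and Angptl2 for Abcc1 (0.95 and 0.94), Mkrn1 and Pld3 for Abcc4 (0.92 and 0.91), Dlat and Wdr66 for Slc15a2 (0.94 each), and Cemip and Ranbp3l for Slc22a8 (0.92 and 0.91), out of 14247 genes. Slco1a5 was below the mean of 50 asked for there.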

How the data were processed

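Messenger RNA of 11 choroid plexus and 10 hypothalamus libraries was analysed. After PicoPure isolation, poly(A) RNA went into directional libraries marked with dUTP, per the labels' protocols. HISAT2, featureCounts and DESeq2 were used with GRCm38 (mm10), per the submitters' processing notes. Tool versions and the strand setting were not given in the sources used here. Values deposited by the authors are a signal, gene counts over DESeq2 size factors per the labels, in a separately scaled table for each tissue. Division by each library's smallest step gave whole reads, within 0.02, for all values of the 21 libraries.

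The main test was limma 3.58.1 (R 4.3.3) with a trended prior variance on log2(value + 1), two-sided, run per tissue on genes averaging at least 10. P-values were adjusted by Benjamini-Hochberg at 0.05. Fold changes are on that scale, which tends to understate changes of low genes, though not where a library is at 0. Exact permutation tests enumerated all 462 (choroid plexus) or 252 (hypothalamus) assignments of group labels, with smallest possible p-values of 0.00216 and 0.00794. The limma fit was tested on simulated data with known fold changes. These were larger than those of the transporters, apart from Slco1a5 in hypothalamus. The simulation thus gives no power for changes as small as most of those reported here. Levels used GENCODE vM21 exon lengths, and promoters came from RefSeq. Endothelial and epithelial scores were mean log2 values of marker lists, permuted 100000 times within groups. edgeR 4.0.16 and DESeq2 1.42.0 on recovered reads, other pseudocounts, filters, scalings, covariates and left-out libraries were alternatives.

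The members and lists were chosen with earlier results of these data known. Named genes are the 8 members, the 5 most abundant and the 2 smallest p-values of each list and tissue, any list gene that passed, and the 2 genes most like each member (mean of at least 50). An item of a list is not reported here. Slc22a6 was named after its values were seen.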

Additional observations from a re-analysis of the deposited data

Results flagged for a closer look

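In 3 of 32 groups of values (8 genes in 4 groups) 1 library stood apart from the others by Dixon's 95% criterion, which chance meets in about 1 of 20 groups. Abcc1 in Ins2 choroid plexus replicate 2 was at 5055 size-factor-scaled reads, with the other 5 libraries at 4155 to 4397. Slc22a8 in Ins2 hypothalamus replicate 1 was at 1158, with the other 4 at 560 to 729; this library was also highest in the fibroblast, endothelial and macrophage sums. Slc15a2 in control hypothalamus replicate 1 was at 853, with the other 4 at 537 to 624.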

How the results depend on the processing

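In choroid plexus 6 of the 8 transporters were higher under every scaling, gene length and left-out control tried. Of 367 values of the transporters' Ins2 response under alternatives, 349 kept direction and side of the threshold, 17 changed sign, all at most 0.114 in size and none called, and 1, Slco1a4 in hypothalamus by DESeq2, became a call (-0.25). The alternatives with the fibroblast score, without hypothalamus Ins2 replicates 1 and 5, or with only the numbers found in both groups were chosen after seeing the data.

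The changed signs in choroid plexus, as log2 fold changes, were those of Slco1a4 with equal totals (0.0062) and Slc15a2 without controls 2 and 5 (-0.022). In hypothalamus they were those of Slc22a8 (-0.11) and Slc15a2 (0.082) without Ins2 replicates 1 and 5. The other changed signs came from leaving out 1 library. In choroid plexus such values ran from -0.042 to 0.0063 for Slco1a4 (above 0 without control 3, control 4 or Ins2 replicate 4), from -0.0048 (without control 4) to 0.098 for Slco1a5, from -0.57 (without control 5) to 0.016 for Abcb1a (above 0 without control 1 or 2) and from -0.027 (without Ins2 replicate 3) to 0.21 for Slc15a2. In hypothalamus they ran from -0.091 to 0.012 for Abcc1 (above 0 without control 1 or Ins2 replicate 2), from -0.039 (without Ins2 replicate 1) to 0.22 for Slc22a8 and from -0.102 to 0.070 for Slc15a2 (above 0 without control 1, Ins2 replicate 2 or Ins2 replicate 5). The cause was not tested.

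Over all genes, the count called in choroid plexus was 2, and 1 with a mean of at least 50, 34 by DESeq2 (3 higher, 31 lower), 6 with array weights and 1 to 4 without 1 library (1 without control 4, Ins2 replicate 1 or Ins2 replicate 4; 4 without Ins2 replicate 5). In hypothalamus it was 0 by limma and by edgeR, 41 by DESeq2 (31 higher, 10 lower) and 0 to 18 without 1 library (1 without control 4, 18 without control 6). With the replicate number as a block, which leaves out libraries whose number is in 1 group only, it was 57 in hypothalamus (50 higher, 7 lower; Slco1a4 adjusted p = 0.114) and 2 in choroid plexus. The same libraries without the block gave 0 and 2. Same-numbered libraries correlated at -0.15 to 0.14, so the numbers were not taken to pair the samples. The codes in the sample titles number some hypothalamus libraries differently, and pairing by those codes was not tried. The count of genes that differed between tissues was 15, and 5 without choroid plexus controls 2 and 5, of which control 2 was highest in oligodendrocyte genes (54407 scaled reads against at most 5907 in the other choroid plexus libraries). Depth limits Slco1a5 in hypothalamus, at 0 to 30 reads.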
